A study of Mus musculus with 15 samples.

Results

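The comparison set mouse cells that had received siRNA against Stat5 and then IL-3 for 30 min beside cells that had received control siRNA and no IL-3. It asks which part of the early response to IL-3 is still seen when Stat5 is low. Its members were chosen by sample title and are 6 of the 15 arrays, 1 of each condition on each of 3 Affymetrix designs, named U74A, U74B and U74C and covering different mouse transcripts. All cells were Ba/F3-beta, a line derived from mouse pro-B cells that needs IL-3 to live and divide. Controls carried the scrambled siRNA named scramble I, and the knockdown cells carried siRNAs against Stat5A and Stat5B together. The other 9 arrays hold control siRNA cells with IL-3 for 30 min, and both siRNAs with IL-3 for 2 h. Knockdown cells without IL-3 were not analysed here, so the numerator and the denominator differ in both siRNA and IL-3, and these effects cannot be told apart in the ratio alone. The control cells at 30 min are therefore given beside each result. The titles do not say whether the 5 conditions came from separate cultures, and with 1 array per condition and design there is no replicate check and no p-value. In RNA from a whole culture, fewer cells of a type and less RNA per cell cannot be told apart.

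IL-3 binds a receptor whose beta chain carries the kinase JAK2. JAK2 phosphorylates STAT5A and STAT5B, which move to the nucleus and switch on genes such as Cish and Pim1, while the same receptor also activates the Ras/MAPK and PI3K pathways. Immediate early genes such as Fos and Egr2 are switched on within minutes by factors already present in the cell, among them SRF with its TCF partners and CREB, and their products and the DUSP phosphatases then shape or end the signal. Double-stranded RNA, the form in which siRNA enters a cell, can be sensed by the cell and can turn on interferon response genes.

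Levels are MAS5 signals, which are array intensities in arbitrary units. A probe set counted as measured when at least 1 of its 2 arrays reached a floor of 119.8, and lower signals were raised to the floor before the log2 ratio was taken. A ratio with 1 raised signal is a bound, written "at least". A gene counted as higher or lower at 2-fold or more, a selection by size and not a test. Of 8178 genes measured, 64 (0.783%) were higher and 31 (0.379%) lower. By probe set, 114 of 13358 (0.853%) were higher and 77 (0.576%) lower. In control siRNA cells IL-3 gave 58 higher (0.711%) and 28 lower (0.343%) of 8155 genes at 30 min, against the same arrays of unstimulated cells. The designs differed in how far their ratios can be read. On U74A 34 probe sets were higher and 6 lower, on U74B 22 and 7, and on U74C 58 and 64. The spread (SD) of the log2 ratio between probe sets of 1 gene came to 0.18 for U74A, to 0.21 for U74B and to 0.38 for U74C, and it holds technical spread only. Of the 64 higher genes, 41 were read on U74A or U74B, and of the 31 lower genes 8 were.

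**Figure D1:**
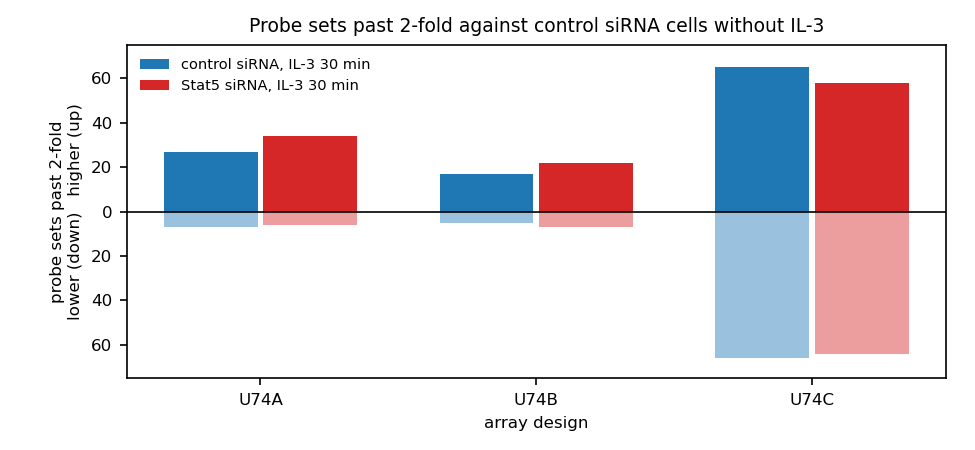
Number of probe sets 2-fold or more above (bars up, full colour) or below (bars down, pale) the unstimulated control siRNA cells, for each array design, after IL-3 for 30 min with control siRNA (blue) or Stat5 siRNA (red). With Stat5 siRNA the higher probe sets outnumber the lower ones on U74A (34 and 6) and U74B (22 and 7) but not on U74C (58 and 64).

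The siRNA targets were lower in the knockdown cells. Stat5b had a signal of 536 without IL-3, 499 with control siRNA and IL-3 for 30 min, and 166 with Stat5 siRNA and IL-3 for 30 min, 33.2% of the control at that time. At 2 h the control stood at 177 and the knockdown at 126, so that the gap there was narrower and the control itself was low. Stat5a stood at 543, 548 and 277 in the same order, 50.6% of the control at 30 min, and at 475 and 254 at 2 h. Its 2 measured probe sets are of a type that can cross-hybridise with related transcripts. Over the measured probe sets the log2 ratio was -1.69 for Stat5b and -1.02 for Stat5a. The Stat5b value was -0.86 with the floor halved, where a dimmer probe set entered its median. Of the other 16 measured genes among IL-3 receptor chains, JAKs, STATs and their phosphatases, 0 passed 2-fold. Csf2rb, the shared beta chain, read 7255, 8357 and 5443, and its log2 ratio (median of 2 probe sets) was -0.34. Csf2rb2, the IL-3-specific beta chain of the mouse, read 2211, 2541 and 1618. Both chains were lowest in the knockdown cells at 30 min, by less than 2-fold. Stat3 had a ratio of 0.35 and Ptpn2, a phosphatase that acts on JAKs and STATs, of -0.54. The 2 measured probe sets of Ptpn2 disagreed, with -0.12 on U74A and -0.97 on U74C.

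Markers of the line's lineage were thin on these arrays. Of 13 pro-B and B lineage markers with a probe set, 2 (Cd79b and Ptprc) reached the floor, while Cd79a, Vpreb1, Igll1, Ebf1, Pax5, Rag1, Rag2 and Il7r did not. Of 12 myeloid and mast cell markers 2 did (Gata2 and Ms4a2), of 9 T and NK markers 1 and of 9 fibroblast and epithelial markers 3. Of 9 erythroid and megakaryocyte markers 7 did, and the summed signal of all 9 was 5377 without IL-3, 4874 with control siRNA and 6844 in the knockdown cells at 30 min. Alas2 and Pf4 on that list did not reach the floor. Of its 6 members measured in the comparison, 3 lay above 0 (median 0.12, lowest -0.33) and 1, Hba-a1, passed 2-fold. Of 9 measured housekeeping genes 0 passed 2-fold, from -0.51 (Gusb) to 0.13 (Tbp), with a median of 0.00 to 2 decimals.

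Part of the early genes stood well above the unstimulated control cells after IL-3 with either siRNA. Knockdown cells without IL-3 were not analysed, so the part of IL-3 in this cannot be told apart from that of the siRNA. Gene lists here and below were chosen with earlier results of these data known, so their counts are descriptions. Over 4 lists of early genes (AP-1 subunits, EGR, NR4A and SRF-linked factors, other immediate early genes, and MAPK feedback genes), 36 of 57 were measured. Of these, 14 were higher and 0 lower, with a median log2 ratio of 0.49, beside 0.783% of genes higher and a median of 0.00 over all genes measured. Control siRNA cells also had 14 of 36 higher and 0 lower, with a median of 0.40. The 2 sets of 14 differ, since Jun passed 2-fold only with Stat5 siRNA and Dusp4 only with control siRNA. Among the 14 genes higher with Stat5 siRNA, the signal in the knockdown cells ran from 51.8% to 149% of the control at 30 min, with a median of 77.7%. It was below the control for 12 of the 14 and above it for 2, Cd69 and Jun. In the direct comparison of the siRNAs at 30 min, 0 of the 34 measured members were 2-fold higher or lower, where 0.308% of all genes were higher and 0.382% lower. For 7 of the 14 the unstimulated signal lay under the floor, so their rise is given as a bound. Of the 23 members measured without such a bound 7 were higher and 0 lower. With the floor doubled 11 of the 14 still passed 2-fold, Jun, Maff and Srf being the exceptions.

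Of 9 measured AP-1 subunits, the FOS, JUN and MAF proteins that pair to bind DNA, 5 were higher and 0 lower. Fos read 9.29 without IL-3, 1943 with control siRNA and 1541 in the knockdown cells at 30 min, at least 12.9-fold over the floor. At 2 h it was back at 44.3 and 77.6, under the floor with either siRNA. Junb went from 90.4 to 1034 and 767 (at least 6.42-fold with Stat5 siRNA), read only by probe sets that can cross-hybridise. Fosl2 read 417, 1707 and 1316, and Jun 18.6, 224 and 270. With signals raised to the floor, Jun had a log2 ratio of at least 1.17 with Stat5 siRNA. With control siRNA it had at least 0.90, a bound short of 2-fold. Maff, a small MAF protein, read 94.6, 329 and 258. Both IL-3 arrays lay well above the unstimulated array for each of these 5 genes, and control and knockdown differed from each other by less than 2-fold. Jund, Batf, Fosb and Mafk stayed within 2-fold of the unstimulated cells (0.55, -0.17, at least 0.17 and 0.02), and Fosl1 and Atf3 were not measured.

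Of 10 measured EGR, NR4A and SRF-linked factors, 2 were higher and 0 lower, and the list's median was 0.08. Egr2, a zinc finger factor, read 25.9, 2237 and 1938, at least 16.2-fold in the knockdown cells. At 2 h it read 309 and 218. Srf, which encodes the serum response factor itself, read 128, 469 and 463 in its brighter probe set, 98.8% of the control. The 2 measured probe sets of Srf disagreed in size, with log2 ratios of 1.86 and 0.38 and a median of 1.12. The second read 259, 367 and 336. Egr3, read on U74C, had 61.6, 205 and 179, a ratio of at least 0.58. Mcl1, a survival protein of the BCL2 family, had 0.38 and Nr4a1 -0.24. Egr1 did not reach the floor on any array.

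Of 9 measured members of the list of other immediate early genes, 5 were higher and 0 lower. Ier2 read 313 without IL-3, 3485 with control siRNA and 3352 with Stat5 siRNA, 10.7-fold in the knockdown cells. Cd69, a lectin that marks early activation of lymphocytes, read 47.6, 781 and 1165, at least 9.73-fold. It stood above its control at 2 h as well, at 219 against 114. Ier2 was nearly level between the siRNAs, and Cd69 was the early gene farthest above its control. Csrnp1, a nuclear protein first found as induced by axin, read 164, 2094 and 1236. Phlda1 read 43.0, 839 and 503. Ier3 read 408, 1760 and 911, 51.8% of the control at 30 min. The log2 ratio of Stat5 siRNA to control siRNA at 30 min was -0.76 for Csrnp1, -0.74 for Phlda1 and -0.95 for Ier3, each short of 2-fold. Rgs2, a regulator of G protein signalling, read 222, 111 and 120, a log2 ratio of -0.89 with Stat5 siRNA. With control siRNA its signal lay under the floor, and it was at least 0.89 lower on the log2 scale. Ppp1r15a had 0.84, Plk3 -0.25 and Trib1 -0.07.

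Of 8 measured MAPK feedback genes, 2 were higher and 0 lower. With control siRNA 3 were, the third being Dusp4, which was read there by 1 probe set and here by 2. Dusp1, a phosphatase that switches off MAP kinases, read 149, 1823 and 1099, 7.36-fold in the knockdown cells and 60.3% of the control. Dusp5, which acts on ERK in the nucleus, read 380, 2378 and 1805, 4.75-fold. Both phosphatases stood well above the unstimulated control cells after IL-3 with either siRNA. They were lower with Stat5 siRNA than with control siRNA, also at 2 h, where Dusp5 read 1593 and 887 and Dusp1 448 and 353. Dusp4 is the gene in which the rule for probe sets matters: its brightest read 112, 454 and 385, at least 1.69 on the log2 scale with Stat5 siRNA and at least 1.92 with control siRNA. The median with its dimmer probe set was at least 0.89. Spry2 had a ratio of 0.44, Dusp6 of at least 0.38 and Spred1 of 0.24.

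**Figure D2:**
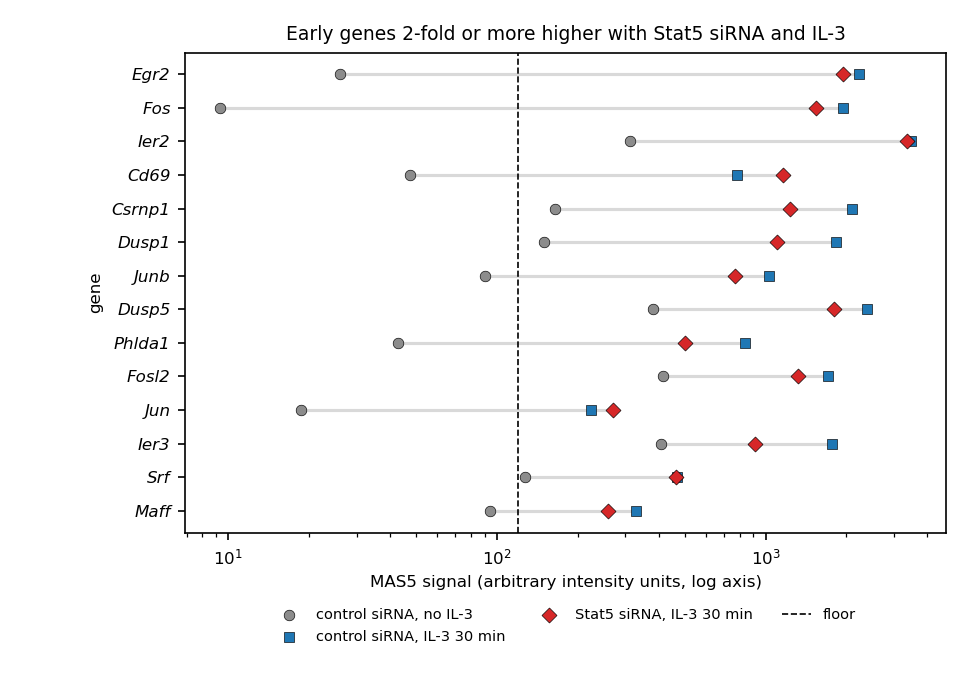
MAS5 signal (log axis) of the 14 early genes that were 2-fold or more higher with Stat5 siRNA and IL-3 for 30 min (red) than with control siRNA and no IL-3 (grey), with control siRNA and IL-3 for 30 min in blue; 1 point is 1 array and the dashed line is the floor. Blue and red lie close together and far to the right of grey for most genes, with Ier3 at 51.8% and Cd69 at 149% of the control.

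The promoters of these early genes are shown where they hold a motif of a factor named above, in the 250 bases before the first listed start of transcription, from RefSeq on GRCm38.p6. The motifs searched on both strands were the CArG box that SRF binds, the CRE that CREB binds (TGACGTCA), the AP-1 site (TGANTCA), the GAS that STAT proteins bind (TTCNNNGAA) and a core of the interferon-stimulated response element (GAAANNGAA). Of 27025 promoters of this length, 1.4% hold a CArG box, 1.62% a CRE, 6.87% an AP-1 site, 7.18% a GAS and 7.16% the core. A window was found for 11 of the 14 higher early genes. Of these 2 hold CArG boxes, 1 a CRE, and 0 a GAS or an AP-1 site. Fosl2 holds the interferon core. The windows below are Srf (chr17:46556163-46556412, minus strand), Dusp5 (chr19:53528895-53529144, plus strand) and Dusp1 (chr17:26508473-26508722, minus strand), and capitals mark CArG boxes in Srf and Dusp5 and the CRE in Dusp1. These windows were chosen after their motifs were seen, and a match is a description of letters.
Srf: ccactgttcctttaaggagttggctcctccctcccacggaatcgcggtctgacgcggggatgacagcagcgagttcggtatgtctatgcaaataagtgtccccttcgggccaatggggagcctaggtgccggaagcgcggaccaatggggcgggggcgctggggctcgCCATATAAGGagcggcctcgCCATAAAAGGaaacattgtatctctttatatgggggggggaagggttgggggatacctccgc
Dusp5: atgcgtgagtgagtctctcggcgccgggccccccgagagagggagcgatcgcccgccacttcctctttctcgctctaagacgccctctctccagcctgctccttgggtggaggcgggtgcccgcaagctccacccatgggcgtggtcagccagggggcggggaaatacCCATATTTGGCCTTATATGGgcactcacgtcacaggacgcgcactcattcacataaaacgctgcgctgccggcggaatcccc
Dusp1: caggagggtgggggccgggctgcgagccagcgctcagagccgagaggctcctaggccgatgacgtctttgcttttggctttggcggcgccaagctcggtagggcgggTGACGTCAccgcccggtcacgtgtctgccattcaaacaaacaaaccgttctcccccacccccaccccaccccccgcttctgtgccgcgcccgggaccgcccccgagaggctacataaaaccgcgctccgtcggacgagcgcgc
In Srf the boxes begin 82 and 62 bases upstream of the start and in Dusp5 they lie side by side at 82 and 72. The CRE of Dusp1 begins 143 bases upstream. Fos, Egr2 and Csrnp1 hold none of these letter patterns in this window.

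Genes whose products destroy mRNA or slow division formed a small list of 7 measured members. Btg2, which recruits deadenylases to mRNA, read 401 without IL-3, 1187 with control siRNA and 1299 with Stat5 siRNA, 3.24-fold in the knockdown cells. Zfp36 (tristetraprolin), which binds AU-rich mRNAs, read 38.0, 406 and 290, at least 2.42-fold. These 2 were higher and 0 were lower, as with control siRNA, beside 0.783% and 0.379% of all genes in the knockdown comparison. Zfp36l2 had a ratio of 0.62 and Tob1 of -0.31.

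Known STAT5 targets as a list stood less far above the unstimulated control cells with Stat5 siRNA than with control siRNA. The list was chosen with earlier results of these data known, so its counts are a description and no independent check. With Stat5 siRNA 3 of 10 measured members were higher and 0 lower, with a median of 0.57, beside 0.783% and 0.379% of all genes. All 3 (Cish, Myc and Id1) are bounds, and of the other 7 members 0 passed 2-fold. With control siRNA 7 of 13 were higher, with a median of 1.01, beside 0.711% of all genes. Between the siRNAs at 30 min 0 of 13 measured members were higher and 3 lower, against 0.382% of all genes lower. At 2 h 0 of 15 were higher and 4 lower, where 0.504% of all genes were higher and 0.43% lower. Socs1, Socs3 and Bcl2l1 reached the floor at 30 min in the control cells only and are the 3 members measured there and not in the knockdown comparison. They could lie only above 0 with control siRNA and only below 0 between the siRNAs. Socs1 is among the 3 lower there, while Cish and Bhlhe40 reached the floor on both arrays. With control siRNA 7 of the 13 had a signal under the floor in at least 1 probe set. The 4 lower at 2 h (Cish, Pim2, Tnfrsf13b and Bhlhe40) reached the floor on both arrays.

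Cish, which encodes a feedback inhibitor of cytokine receptors, read 108 without IL-3, 1096 with control siRNA and 389 in the knockdown cells at 30 min. It was thus still at least 3.25-fold above the floor in the knockdown cells, at 35.5% of the control. At 2 h it read 1564 and 645. Bhlhe40, a basic helix-loop-helix repressor, read 347, 1142 and 485 and then 1889 and 816 at 2 h. It rose past 2-fold with control siRNA only, and its log2 ratio with Stat5 siRNA was 0.48. Socs1, another feedback inhibitor, read 35.1, 277 and 101, so its signal with Stat5 siRNA lay under the floor. These 3 genes were 2-fold or more lower with Stat5 siRNA than with control siRNA at 30 min, by -1.49 (Cish), -1.24 (Bhlhe40) and at least 1.21 on the log2 scale (Socs1).

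Other members of the list differed less between the siRNAs at the earlier time. Myc read 39.4, 527 and 452, at least 3.77-fold in the knockdown cells and 85.7% of the control. Id1, which blocks DNA binding by helix-loop-helix partners, read 49.9, 368 and 257, at least 2.15-fold. Cdkn1a, the CDK inhibitor p21, read 213, 731 and 445 in its brighter probe set, a log2 ratio of 1.06 against 1.78 with control siRNA. Its other probe set gave 0.40 against 0.95, and the median of both was 0.73 against 1.36. Pim1, a survival kinase, read 573, 907 and 923 in its brighter probe set, a ratio of 0.69 against 0.66. Its dimmer probe set, under the floor without IL-3, gave at least 0.64 against at least 1.36. The median over the 2 probe sets was 0.66 against 1.01. Myc and Id1 thus passed 2-fold with either siRNA. By the median of their probe sets Cdkn1a and Pim1 passed it only with control siRNA, but their single probe sets differed in this. The difference between siRNAs stayed under 2-fold for all 4. With the floor doubled Cish, Myc and Id1 all fell short of 2-fold, since their unstimulated signals lie under the floor. Tnfrsf13b, the receptor TACI, read 953, 1344 and 918, close to the unstimulated level in the knockdown cells, and was 2090 against 642 at 2 h. Bcl2, Socs2 and Ccnd3 lay between -0.11 and 0.09. A window was found for 6 of the 10 measured members, and 0 of them hold a GAS in these 250 bases. Cish is among those 6. Bases outside the window and other starts were not searched, so a GAS elsewhere in these genes would be missed.

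**Figure D3:**
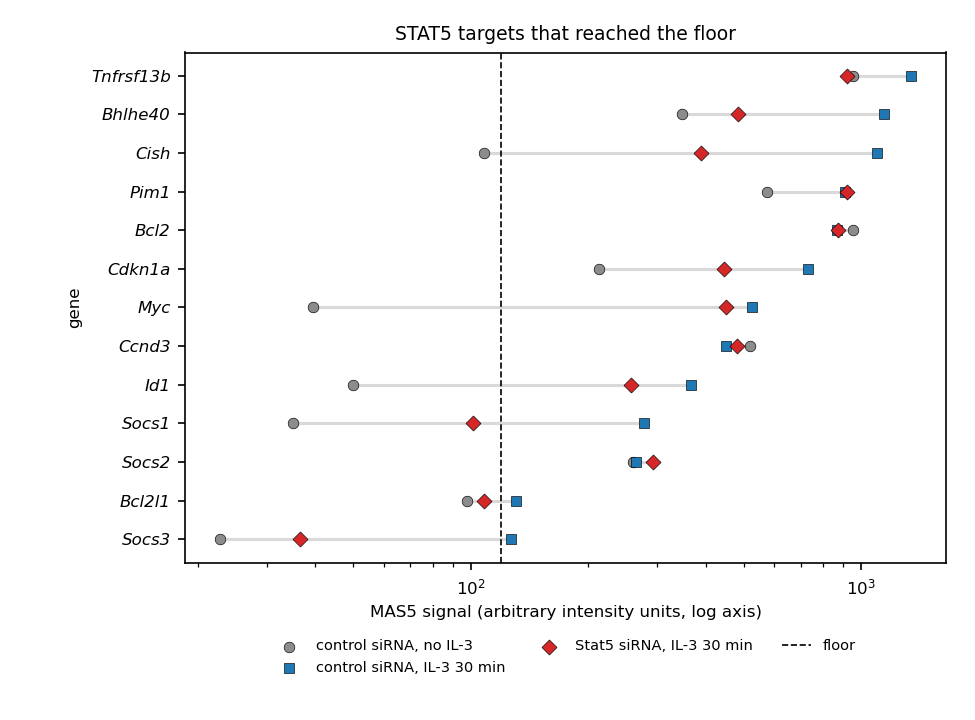
MAS5 signal (log axis) of the members of the STAT5 target list that were measured with either siRNA at 30 min, without IL-3 (grey), with control siRNA and IL-3 (blue) and with Stat5 siRNA and IL-3 (red); 1 point is 1 array and the dashed line is the floor. Cish (1096 and 389), Bhlhe40 (1142 and 485) and Socs1 (277 and 101) lie well apart in blue and red, as does the dim Socs3 (127 and 36.6), and Myc (527 and 452) and Pim1 (907 and 923) narrow ones.

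A second group of high genes did not pass 2-fold in the control cells. Of 49 interferon response genes 23 were measured, and 9 were higher and 0 lower than in control siRNA cells without IL-3, with a median of 0.70. The ratio was above 0 for 22 of the 23, the exception being Ly6e at -0.32, but 6 of the 23 were measured through the knockdown array alone and had to lie above 0. Of the other 17, 7 were higher, 0 lower and 16 above 0. Over all genes the share higher was 0.783%. This list too was chosen with earlier results of these data known, so its counts are a description. With control siRNA and IL-3, 0 of 19 measured members were higher or lower, with a median of 0.12. Of the 9, Oasl1 (0.67), Gbp7 (0.66), Irf1 (0.48) and Irf9 (0.39) had ratios above 0 there too, and for Gbp7 that exceeds the ratio between the siRNAs at 30 min (0.38). Between the siRNAs at 30 min 7 of 24 were higher and 0 lower (median 0.59), against 0.308% and 0.382% of all genes. Among the 17 of these 24 that reached the floor on both arrays 5 were higher. At 2 h, on arrays that enter none of these ratios, 9 of 26 were higher and 0 lower (median 0.61), where 0.504% and 0.43% of all genes were. There 9 of the 26 were measured through the knockdown array alone and could lie only above 0. Of the other 17, 6 were higher, 0 lower and all 17 above 0, with a median of 0.65.

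Irf7, the factor that amplifies type I interferon genes, read 38.5 without IL-3, 41.4 with control siRNA at 30 min and 446 in the knockdown cells at 30 min. At 2 h it read 44.2 and 329. In this probe set Irf7 was at least 3.73-fold above the floor at 30 min, with the 3 control arrays under the floor. A U74C probe set of Irf7 that can cross-hybridise was far brighter, at 951, 1220 and 9271 and then 1223 and 7267. In both, the arrays with Stat5 siRNA lay above all 3 control arrays. Irf1, an interferon regulatory factor, read 131, 183 and 470 at 30 min, 3.58-fold, but 43.8 and 34.0 at 2 h. It was therefore high on 1 of the 2 arrays with Stat5 siRNA. Irf9, the DNA-binding part of the ISGF3 complex, read 157, 207 and 317 and then 166 and 260.

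In the oligoadenylate synthetase family, several of whose enzymes are switched on by double-stranded RNA, 3 members were higher. Oasl1 read 161, 255 and 547 at 30 min (3.40-fold) and 124 and 416 at 2 h. Oasl2 read 53.4, 53.3 and 279 (at least 2.33-fold) and then 69.8 and 396. Oas2 read 202, 187 and 439 (2.18-fold) and then 211 and 533. In these 3 genes both arrays with Stat5 siRNA lay above all 3 control arrays. Oas3, read on U74C, had a ratio of 0.70. Oas1b, also on U74C, went the other way between the siRNAs, with 43.3, 232 and 113 and then 118 and 80.6. Oas1g stayed under the floor on all 5 arrays.

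Ifi27 read 590, 682 and 1541 at 30 min (2.61-fold) and 692 and 1323 at 2 h. Bst2 (tetherin), a membrane protein that holds back budding viruses, read 489, 433 and 980 (2.00-fold) and then 423 and 1068. Gbp7, a guanylate-binding protein, read 179, 284 and 370 (2.06-fold) and then 266 and 708. In the first 2 genes both arrays with Stat5 siRNA lay above all 3 control arrays, and in Gbp7 as well, with a narrow gap at 30 min. Members short of 2-fold were Rsad2 (at least 0.82), Ddx58, which encodes the RNA sensor RIG-I (0.77), and Adar (0.64). Of the 9 higher members 8 were measured at 2 h, where 6 were 2-fold higher with Stat5 siRNA and 0 lower. Irf7 and Oasl2 had a control signal under the floor there and could lie only above 0. Of the other 6, 4 were 2-fold higher and all 6 lay above 0, with a median of 1.34. Several of the 9 lay near the threshold: with the floor doubled 3 still passed it (Ifi27, Oasl1 and Bst2), and with arrays scaled to their median signal 6 did, without Bst2, Gbp7 and Irf9. With the floor halved Gbp7 stood at 0.51.

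Promoter windows were found for 7 of these 9 genes. Of the 7, 3 hold a GAS and 2 the interferon core, and of 20 measured members with a window 5 (25%) hold a GAS and 9 (45%) the core, beside 7.18% and 7.16% of all promoters. The windows of those 3 genes, chosen after their motifs were seen, are Irf1 (chr11:53769764-53770013, plus strand), Bst2 (chr8:71537473-71537722, minus strand) and Gbp7 (chr3:142530086-142530335, plus strand). Capitals mark GAS motifs and interferon cores, which overlap in Bst2.
Irf1: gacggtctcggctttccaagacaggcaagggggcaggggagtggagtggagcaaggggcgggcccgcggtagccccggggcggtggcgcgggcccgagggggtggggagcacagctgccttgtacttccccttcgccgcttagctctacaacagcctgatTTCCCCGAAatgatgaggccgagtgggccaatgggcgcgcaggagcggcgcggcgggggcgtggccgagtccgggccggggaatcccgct
Bst2: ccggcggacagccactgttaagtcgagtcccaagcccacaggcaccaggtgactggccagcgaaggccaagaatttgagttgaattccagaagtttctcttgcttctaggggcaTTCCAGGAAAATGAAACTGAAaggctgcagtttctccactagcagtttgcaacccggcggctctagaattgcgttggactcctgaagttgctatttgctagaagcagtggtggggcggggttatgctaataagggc
Gbp7: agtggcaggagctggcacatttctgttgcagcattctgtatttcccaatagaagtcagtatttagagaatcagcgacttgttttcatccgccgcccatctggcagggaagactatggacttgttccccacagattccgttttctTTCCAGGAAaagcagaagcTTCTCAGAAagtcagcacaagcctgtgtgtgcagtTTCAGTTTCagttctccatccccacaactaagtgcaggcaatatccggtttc
The GAS of Irf1 begins 90 bases upstream of the start. That of Bst2 begins 136 bases upstream, with cores from 130 and 124, and those of Gbp7 begin at 106 and 87, with a core from 52. Irf7 holds none of these patterns in its window.

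Ccl5 (RANTES), a chemokine for T cells and monocytes, was low in all control cells. It read 42.8 without IL-3, 61.4 with control siRNA and 1659 in the knockdown cells at 30 min, and 44.7 and 1238 at 2 h. That is at least 13.8-fold at 30 min and, between the siRNAs at 2 h, at least 10.3-fold. The 3 control arrays lay under the floor and both arrays with Stat5 siRNA lay far above it. Of 12 chemokines 3 were measured. Ccl9 read 189, 251 and 77.8 (at least 0.65 lower on the log2 scale), and Cxcl16 had -0.41. Of 15 NF-kB subunits, inhibitors and targets with a probe set 4 were measured and 0 passed 2-fold, with Nfkbia at -0.27 and Rela at 0.19.

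In all, 17 genes were 2-fold or more higher than in the unstimulated control cells and also than in the control cells at 30 min. Both ratios share the knockdown array, so this count selects genes high on it. On the separate arrays at 2 h, 15 of the 17 were measured. Of these 8 were 2-fold higher with Stat5 siRNA and 1 lower, beside 0.504% and 0.43% of all genes, and 13 of 15 lay above 0. Of the 9 that reached the floor on both arrays, 4 were higher, 0 lower and 8 above 0. Hba-a1, an alpha globin, read 467, 471 and 1102 at 30 min and 447 and 1171 at 2 h, which makes it one of the 8. The 9 erythroid and megakaryocyte markers, Hba-a1 among them, summed at 2 h to 4132 in the control and 6291 in the knockdown cells. Marker by marker, 3 of 6 measured lay above 0 against the unstimulated cells (median 0.12). Between the siRNAs at 2 h 4 of 5 did (median 0.42), and 1, Hba-a1, passed 2-fold. The part of these markers in the results was not tested. Lgals9, a galectin, read 224.5, 234 and 484 and then 234 and 350. Allc, read on U74C, was at 74.99, 110 and 291 and then 75.6 and 224.

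**Figure D4:**
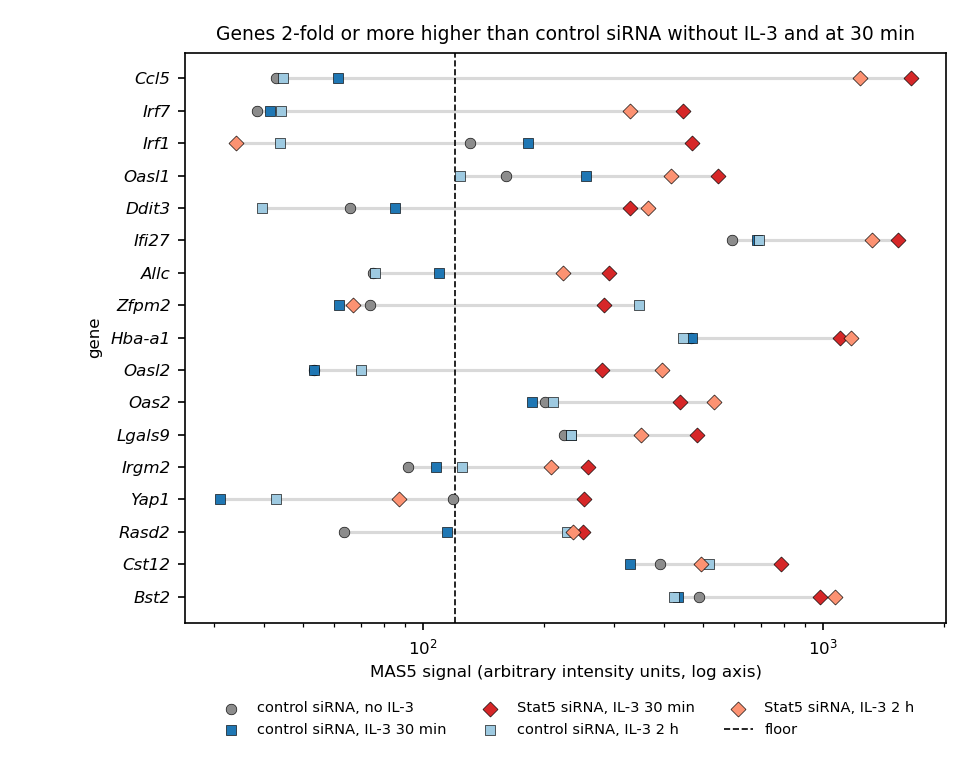
MAS5 signal (log axis) on all 5 arrays for the 17 genes that were 2-fold or more higher with Stat5 siRNA and IL-3 for 30 min (dark red) than in control siRNA cells both without IL-3 (grey) and with IL-3 for 30 min (dark blue); pale red and pale blue are the 2 h arrays and the dashed line is the floor. Ccl5 stands at 1238 and the plotted U74A probe set of Irf7 at 329 with Stat5 siRNA at 2 h while their control arrays stay under the floor. Zfpm2, Irf1 and Cst12 are not higher with Stat5 siRNA at 2 h.

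Among 18 measured genes of the amino acid and ATF4 stress response 2 were higher and 0 lower, with a median of 0.26. Over all genes 0.783% were higher and 0.379% lower, with a median of 0.00. With control siRNA 1 of 17 measured members was higher and 1 lower, with a median of 0.04. The higher one was Xbp1, with a ratio of 1.23 there. Between the siRNAs Xbp1 was the lowest member at both times, at -0.97 at 30 min and -0.99 at 2 h. Atf4, the factor that leads this response, read 376, 608 and 1017 at 30 min, 2.71-fold, and 820 and 1236 at 2 h. Ddit3 (CHOP), its target, read 65.7, 84.9 and 329, at least 2.75-fold, and 39.6 and 364 at 2 h. Both were highest with Stat5 siRNA at each time, and in the control cells Atf4 had a ratio of 0.69 at 30 min. Ddit4, a brake on mTORC1, read 508, 158 and 262, so its log2 ratio was -0.96 with Stat5 siRNA and -1.69 with control siRNA. Sars had a ratio of 0.65, Aars of 0.53 and Mthfd2 of 0.43.

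Growth-linked lists stayed near the median of all genes. Of 26 measured genes of ribosome biogenesis 1 was higher and 0 lower, with a median of 0.03, beside 0.783% and 0.379% of all genes. Tsr1, which acts in maturation of the small subunit, read 175, 247 and 354, 2.02-fold, and Gnl3 had a ratio of 0.77 and Nop2 of 0.59. Of 12 measured FOXO-linked and growth arrest genes 0 passed 2-fold, with a median of -0.04, from Gadd45a at -0.39 to Foxo3 at 0.39.

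The falls were fewer than the rises and mostly on U74C. Cdk20, a kinase related to cell cycle kinases, had the largest ratio once low signals were raised to the floor, so that dimmer genes such as Rhox13 could have fallen further. It went from 499.9 without IL-3 and 344 with control siRNA to 126 in the knockdown cells at 30 min. At 2 h it read 329 and 634, so that it was high there with Stat5 siRNA. Psmc3 (838, 942 and 288), Sfxn4 (555, 418 and 168), Rhox13 (362, 172 and 41.6) and Egflam (343, 665 and 118) were other falls of U74C. Without U74C the ratio of Psmc3, read by U74A probe sets that can cross-hybridise, was 0.20. Prickle4 (306, 48.6 and 71.2) and Fam217a (1548, 601 and 615) were lower by about as much with control siRNA. Of the 23 genes lower on U74C only, 20 were measured between the siRNAs at 2 h, where 9 lay above 0 and 11 below.

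On U74A and U74B 8 genes were lower, among them Stat5a and Stat5b, which the siRNAs target. All 8 lay below 0 between the siRNAs at 2 h (median -0.78), where 1 passed 2-fold. Over all genes 0.43% were 2-fold lower there, and 4107 of 8132 lay above 0. S100a4, a calcium-binding protein, read 1412 without IL-3, 1040 with control siRNA and 399 in the knockdown cells at 30 min, and 1247 and 439 at 2 h. It is the 1 that passed, and both of its arrays with Stat5 siRNA lay below all 3 control arrays. E330020D12Rik, a transcript with no gene name, read 1040, 355 and 279, so most of its fall was seen with control siRNA too. L1cam, an adhesion molecule, read 393, 402 and 176 and then 227 and 136. Adam8, a membrane protease, read 365, 399.8 and 173 and then 969 and 533. Vezt read 406, 339 and 192, and Tubg1, the gamma tubulin of the centrosome, 312, 225 and 153. Ankrd37 (239, 163 and 119) and Tyrobp, a signalling adaptor of myeloid and NK cells (421, 401 and 212), were just short of 2-fold, the latter at -0.99. As in S100a4, both arrays with Stat5 siRNA lay below all 3 control arrays in Stat5a, Stat5b, L1cam, Vezt, Tubg1 and Tyrobp. The gap to the lowest control array was narrow in Stat5b, Vezt and Tubg1. In E330020D12Rik, Adam8 and Ankrd37 the arrays did not separate in this way.

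**Figure D5:**
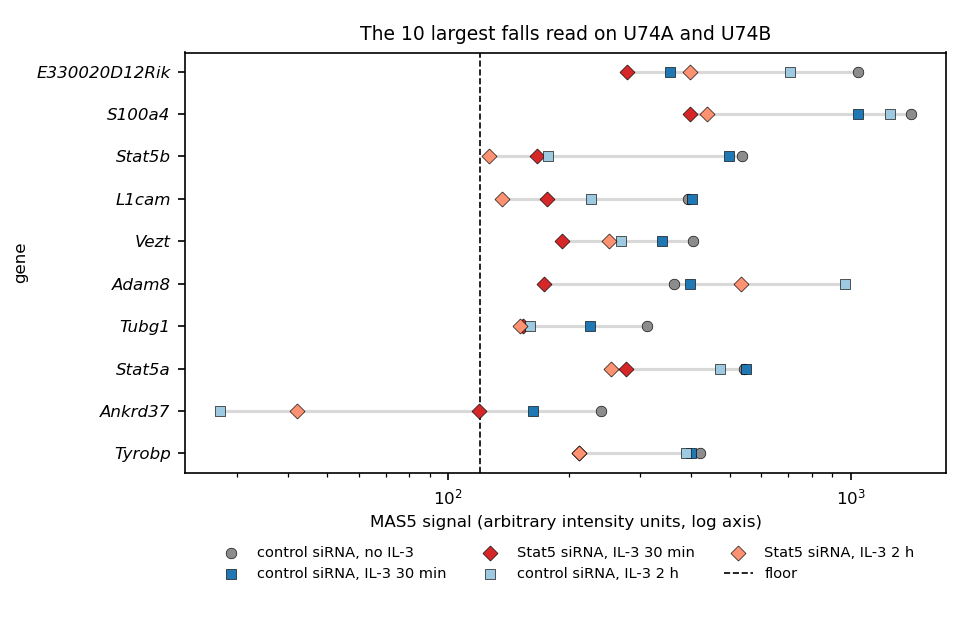
MAS5 signal (log axis) on all 5 arrays for the 10 largest falls read on U74A and U74B, with symbols for siRNA and time as in the legend and the floor as a dashed line. S100a4 separates both arrays with Stat5 siRNA (399 and 439) from the 3 control arrays. So do Stat5a, Stat5b, L1cam, Vezt, Tubg1 and Tyrobp, some of them by a narrow gap. E330020D12Rik falls from 1040 to 355 with control siRNA as well.

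Ratios at 2 h shared no array with the comparison and give a second reading of the siRNA effect. Of the 64 higher genes 58 were measured there, and 10 were 2-fold higher and 4 lower with Stat5 siRNA, beside 0.504% and 0.43% of all genes. Of these 58, 12 had 1 signal under the floor in every measured probe set, and of the other 46, 5 were higher and 1 lower. Of the 37 measured genes read on U74A or U74B 9 were higher and 1 lower, and 29 lay above 0. Of the 21 read on U74C only 1 was higher and 3 lower, and 10 lay above 0. Of the 12 measured early genes among the 14 higher ones 0 were higher or lower, and 6 lay above 0. The genes high in the knockdown cells at 30 min thus held a group that differed between the siRNAs at 2 h, among them 6 interferon response genes, and the early genes, which did not pass 2-fold between the siRNAs at either time.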

How the data were processed

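The authors deposited 1 MAS5 intensity per probe set and array on a linear scale, per the labels and the series' design text. With 2% of probe sets trimmed from both ends, the 15 array means ran from 150.04 to 150.1. Each array was scaled to 1 trimmed mean. The floor was set so that 14553 of 36701 non-control probe sets, the number the design text says passed the study's filters, reached it on the highest of 5 arrays. Gene names came from the platform annotation (1 symbol for 29131 probe sets, several for 724, none for 6846), and a gene's value was the median log2 ratio over its measured probe sets with 1 symbol. Those ending in _f_at, _r_at, _i_at or _x_at entered only where a gene had no other. A signal printed in the text is that of the gene's brightest measured probe set. Designs were never mixed in a ratio. The steps were tested on simulated data and run with Python 3.11.15, numpy 2.4.6 and pandas 2.3.3.

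Named are Stat5a, Stat5b, the 15 largest rises, the 10 largest falls, the 10 largest falls of U74A and U74B, list members past 2-fold with up to 4 others, and up to 12 genes 2-fold higher here and between the siRNAs at 30 min. Members and lists were chosen with earlier results of these data known. Promoters came from RefSeq on GRCm38.p6. The windows of Cish, Fos, Egr2, Csrnp1 and Irf7 were to be printed by rule. They hold none of the motifs and are only named. Alternatives changed the scaling, the floor, the threshold, the probe sets and the designs used.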

Additional observations from a re-analysis of the deposited data

Results flagged for a closer look

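For 2 of the genes named above, both read on U74C, the siRNAs differed by 2-fold or more at both times and in opposite directions, and the difference between the times was not tested. Psmc3, a proteasome ATPase, had a log2 ratio of Stat5 siRNA to control siRNA of -1.71 at 30 min and 1.66 at 2 h. Its signals were 942 with control and 288 with Stat5 siRNA at the earlier time, then 228 and 719. The 3 measured U74A probe sets of Psmc3, which can cross-hybridise, gave 0.21, -0.01 and 0.03 at 30 min and -0.33, 0.24 and -0.08 at 2 h. Zfpm2, a zinc finger cofactor of GATA proteins, had at least 1.24 at 30 min and -1.53 at 2 h, with signals of 61.7 and 283 and then 346 and 67.0. Each Zfpm2 ratio rests on 1 signal under the floor.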

How the results depend on the processing

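Counts of higher and lower genes (64 and 31) and probe sets (114 and 77) depended on the floor and the fold. With the floor halved they were 119 and 103 genes and 265 and 265 probe sets, with low signals left as they were 143 and 120 genes and again 265 and 265 probe sets (the same ones by construction), and with the floor doubled 35 and 11 genes and 57 and 19 probe sets. A 1.5-fold threshold gave 226 and 188 genes and 468 and 401 probe sets, and a 3-fold threshold 17 and 6, and 33 and 12. U74A and U74B alone gave 41 and 8 genes and 56 and 13 probe sets. Without probe sets that can cross-hybridise 47 probe sets were lower. The cause of these shifts was not tested beyond the change in what was counted. Median or quantile scaling, a floor per design, the brightest probe set, and a floor on the mean of 5 arrays (chosen after seeing the data) kept each count they were run on within 1.5 times.

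Of 51 named genes past 2-fold, 26 stayed past it with the floor doubled, where Cish had 0.70, Irf7 0.90, Myc 0.91 and Irf1 0.97, and 47 with median scaling, where Bst2, Gbp7, Irf9 and Tsr1 did not. Psmc3 reversed, to 0.20, when U74C was left out, since its probe set there gave the fall. No paired analysis was possible because each condition has 1 array per design and the titles carry no replicate numbers. Depth of signal limits all genes under the floor, and 1 array per condition limits every value.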

Other observations

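Further genes tied to interferon or to antigen presentation, outside the list used above and chosen after their values were seen, were also higher in the knockdown cells. Irgm2, an interferon-inducible GTPase, read 91.5 without IL-3, 108 with control siRNA and 258 in the knockdown cells at 30 min, at least 2.15-fold, and 125 and 209 at 2 h. H2-D1, a class I antigen-presenting molecule read only by probe sets that can cross-hybridise, read 1219, 1367 and 2472 and then 1393 and 2313. Helz2, a nuclear receptor coactivator, read 241, 380 and 521 and then 408 and 531, with a log2 ratio of 0.65 in the control cells at 30 min. On the list itself, B2m, the light chain of class I molecules, read 3050, 1930 and 3787 and then 1740 and 4353, which put its ratio at 0.31 against the unstimulated cells and at 0.97 between the siRNAs at 30 min.

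Xbp1, a factor of plasma cells and of the unfolded protein response, is a member of the amino acid and ATF4 stress list above. Its values are given here because it was also picked out after they were seen. It read 329 without IL-3, 774 with control siRNA and 394 in the knockdown cells at 30 min, and 1538 and 777 at 2 h. Its log2 ratio was 1.23 with control siRNA and 0.26 with Stat5 siRNA, and between the siRNAs -0.97 at 30 min and -0.99 at 2 h, just short of 2-fold.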
